A study of Mus musculus with 24 samples.

Results

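Resident macrophages of muscle were followed through 9 genes in mouse quadriceps: Cd163, Mrc1, Folr2 and Lyve1, which encode receptors for scavenging and uptake, the lectins Mgl2 and Clec10a, the enzymes F13a1 and Cbr2, and the transcription factor Maf. The genes were taken by symbol from the matrix of log2 CPM (counts scaled to the size of each library) that the authors deposited, where all 9 were found among 14159 genes with a symbol. All 9 therefore also passed the authors' filter on low levels. Levels were measured by bulk RNA sequencing of whole quadriceps in 24 libraries from 2 inbred strains, C57BL/6 (B6) and MRL/MpJ (MRL), the second known both for closing some wounds with little scar and for autoimmunity. All mice were female and 6 to 8 weeks old at the time of surgery. In each strain 3 libraries came from uninjured muscle, and 3 each from a volumetric muscle loss injury that had received saline, ECM (decellularized extracellular matrix from pig small intestine) or PE (polyethylene particles). Injured muscle was collected on day 21. The libraries are of whole muscle and not of sorted cells, so fewer cells of a type and less RNA per cell cannot be told apart.

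Tissue-resident macrophages live for long periods in the connective tissue of muscle, where they clear dead cells, haemoglobin and matrix fragments, while monocytes that arrive from the blood after an injury become macrophages with another set of genes. CSF1 and its receptor keep macrophages alive, the transcription factor PU.1 (gene Spi1) gives them their identity, and the cytokines IL-4, IL-13 and IL-10 and the factor MAF favour the expression of scavenger receptors and lectins. Several of the 9 genes are also used by other cells. Lyve1 marks lymphatic endothelium, F13a1 is stored in platelets, Mgl2 and Clec10a are found on some dendritic cells, and large MAF factors act in fast muscle fibres.

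Mgl2 and Clec10a are neighbours and near copies, which bears on how far their levels can be separated. Mgl2 lies at chr11:70020954-70028376 and Clec10a at chr11:70047023-70061660, both on the forward strand (GENCODE, GRCm39). Their coding sequences, without the stop codon, are 996 and 912 bases long, and 838 of 910 aligned bases (92.1%) are identical. The longest run without a difference is 183 bases, at coding bases 547 to 729 of Mgl2, and it is shown first. Reads from such a run are divided between both genes by estimate in the authors' pseudoalignment, so the level of each gene is less certain than that of a gene without a copy. The other lines show the 75 bases in which the coding sequences differ most, bases 876 to 950 of Mgl2 and 828 to 902 of Clec10a, with the 22 differing bases in capitals. Here a read can be given to 1 of the genes.
Mgl2 and Clec10a, shared run: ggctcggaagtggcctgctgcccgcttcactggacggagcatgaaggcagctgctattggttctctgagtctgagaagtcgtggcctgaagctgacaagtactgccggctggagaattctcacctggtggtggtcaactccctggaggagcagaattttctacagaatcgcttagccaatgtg
Mgl2, most different stretch: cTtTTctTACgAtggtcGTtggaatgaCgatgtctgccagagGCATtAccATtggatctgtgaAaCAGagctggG
Clec10a, most different stretch: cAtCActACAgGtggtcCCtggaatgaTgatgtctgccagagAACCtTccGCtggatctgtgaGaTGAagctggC

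Mrc1 and Cd163, receptors whose mean levels differed from uninjured muscle in opposite directions in PE-treated B6 mice, are shown by the sequence just before their start. The RefSeq promoter table (250 bases before to 50 after a start, build GRCm38.p6) held 8 promoters for Cd163, Mrc1, Mgl2, Folr2, F13a1 and Cbr2, and 7 of these, all but the second of F13a1, were placed on GRCm39 by exact match. Only the bases before the GENCODE gene start are printed, chr2:14233975-14234150 for Mrc1 and chr6:124281360-124281605 for Cd163, both forward. Capitals mark the PU.1 core GAGGAA read on either strand (TTCCTC on the reverse). It occurred in 5 of the 8 promoters and in 28.3% of all 32851 promoters of the table, 3 times in the Mrc1 promoter, with 2 of these in the printed bases, and not in that of Cd163. Both promoters of F13a1 were among the 5. The MAF half-site TGCTGA, searched on both strands, occurred in 3 of the 8 and in 19.5% of all. These 3 were both promoters of Folr2 and that of Cbr2, so promoters of the same gene are counted separately. Sites of the transcription factors STAT6 and C/EBP were searched too. The STAT6 site occurred in 1 of the 8 and in 6.95% of all, and the C/EBP core in 0 of the 8 and in 10.8% of all. A match to any of these motifs is a description of the window and not a binding site.
Mrc1: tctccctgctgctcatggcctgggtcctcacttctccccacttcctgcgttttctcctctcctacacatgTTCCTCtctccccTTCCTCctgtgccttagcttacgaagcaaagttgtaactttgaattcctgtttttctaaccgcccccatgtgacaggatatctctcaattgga
Cd163: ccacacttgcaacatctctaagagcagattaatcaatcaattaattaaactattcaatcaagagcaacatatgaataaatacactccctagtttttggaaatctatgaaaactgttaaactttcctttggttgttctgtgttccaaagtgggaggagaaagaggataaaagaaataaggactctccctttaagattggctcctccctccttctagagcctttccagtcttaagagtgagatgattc

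The mean effective library size was 25149678 counts, at which 3 counts correspond to 0.119 CPM, and the level of every one of the 9 genes lay above that in all libraries. Correlations of log2 CPM between libraries of a group, across all genes, ranged from 0.812 to 0.976, and they were lowest, at 0.812 and 0.827, for replicate 2 of PE-treated MRL mice. That library stands apart in its levels of cell type markers. The mean log2 CPM of 12 general macrophage markers (such as Adgre1, Cd68, Csf1r and C1qa) was 5.8 there, compared with 3.1 and 3.2 in replicates 1 and 3, and that of 7 muscle fibre genes was 10.99, compared with 12.65 and 12.52. Values of PE-treated MRL mice that move by over 1.5 times, or gain or lose a call, without it are given beside the result. Replicate 1 of ECM-treated B6 mice had the highest Cd163, Mrc1 and Mgl2 of all 24 libraries, and values of ECM-treated B6 mice are treated in the same way for it. All 12 macrophage markers were present in the matrix, and only Tyrobp was at a count of 0 in any library (1 of uninjured and 2 of saline-treated MRL mice). Their summed level in B6 mice ranged from 97.1 to 118 CPM in uninjured, 195 to 227 in saline-treated, 217 to 661 in ECM-treated and 1150 to 3510 in PE-treated muscle. In MRL mice it ranged from 53.5 to 114, 88.0 to 269, 121 to 211 and 173 to 2470 CPM in the same order.

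One limma model over the 24 libraries and 14159 genes gave all 2-sided tests, with Benjamini-Hochberg adjustment within each comparison. Genes whose adjusted p was under 0.05 are named called. The p-values set each difference against the spread between libraries within groups, which is shared over all 8 groups. The spread of replicate 2 of PE-treated MRL mice therefore enters every comparison. Means are given with the SD of 3 libraries and log2 fold changes with their standard error (SE).

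**Figure D1:**
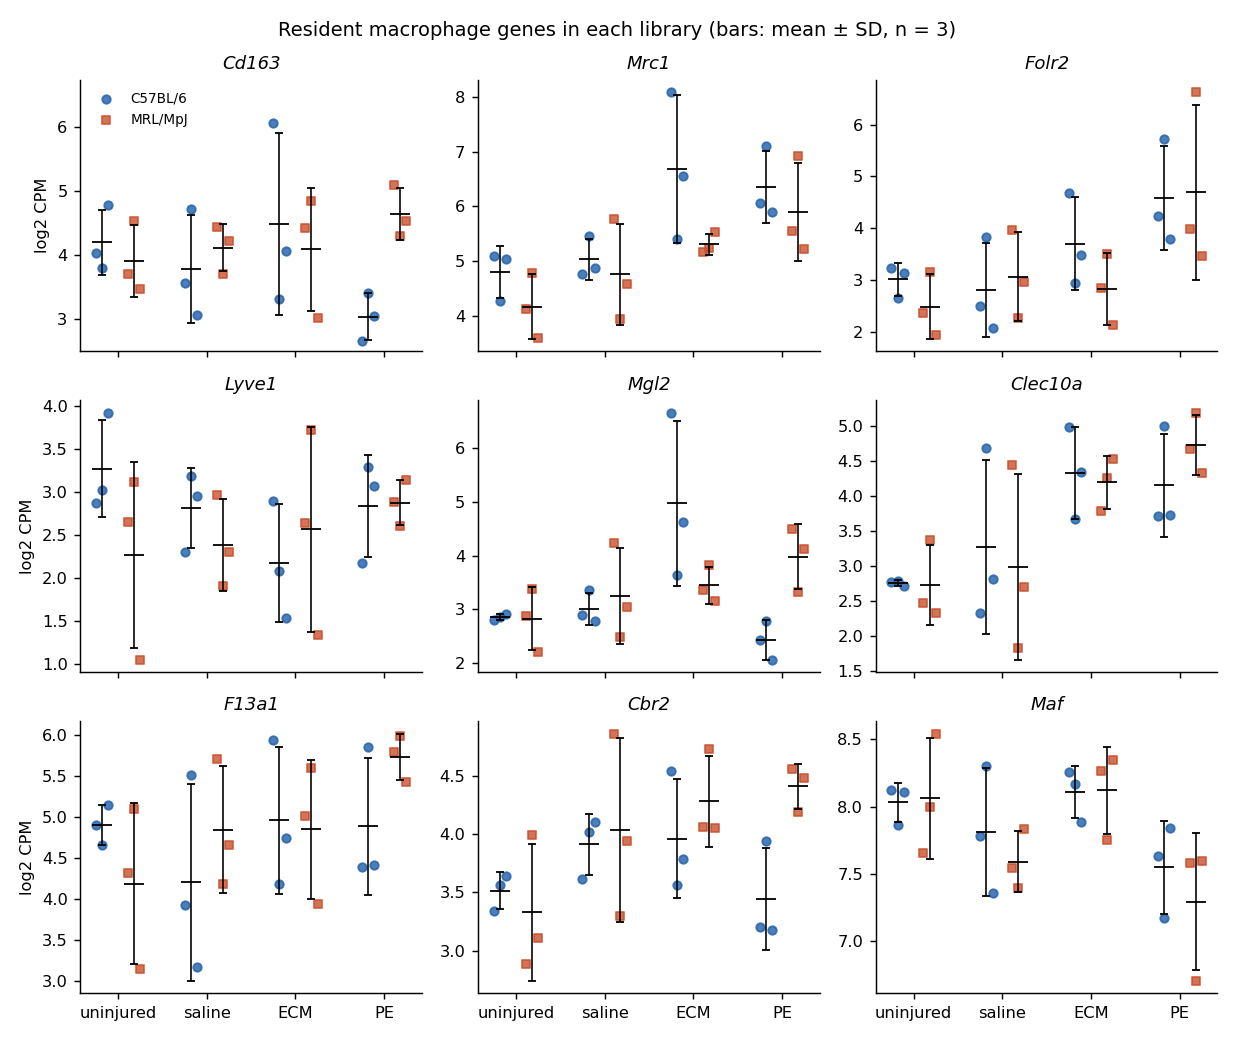
Log2 CPM (y axis) of the 9 genes in each of the 24 libraries, by treatment (x axis) and strain (blue circles, B6; orange squares, MRL), with the mean and SD of 3 libraries in black; y axes differ between panels. Mgl2 reached 6.66 in 1 library of ECM-treated B6 mice and lay between 2.06 and 2.79 in PE-treated B6 mice, below all 3 PE-treated MRL libraries.

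Cd163, the receptor that takes up haemoglobin bound to haptoglobin, lies at chr6:124281606-124307560. In B6 mice its log2 CPM in replicates 1, 2 and 3 was 4.02, 3.80 and 4.77 in uninjured muscle, 3.56, 4.72 and 3.05 with saline, 6.07, 3.31 and 4.06 with ECM, and 2.66, 3.39 and 3.04 with PE. In MRL mice it was 3.71, 4.53 and 3.46 in uninjured muscle, 4.43, 3.70 and 4.21 with saline, 4.42, 4.85 and 3.00 with ECM, and 5.10, 4.29 and 4.54 with PE. The 3 PE-treated B6 libraries were below all uninjured B6 libraries and below all PE-treated MRL libraries, while the ECM-treated B6 libraries overlapped every other group. Between PE-treated MRL and B6 mice the difference was 1.61 on the log2 scale (SE 0.58, 95% confidence interval 0.40 to 2.83), which did not pass the adjustment (adjusted p = 0.133 in limma). In B6 mice PE differed from uninjured muscle by -1.17 (SE 0.58, adjusted p = 0.136). The ECM mean of B6 mice, 4.48 ± 1.43 (SD, n = 3), rested on replicate 1, without which the difference from uninjured muscle turned from 0.28 to -0.51 (adjusted p = 0.825 and 0.683).

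Mrc1 (chr2:14234151-14336926) encodes the mannose receptor CD206, an endocytic receptor often used to describe macrophages of repair. Its log2 CPM in B6 mice was 5.10, 4.27 and 5.05 in uninjured muscle, 4.76, 5.46 and 4.88 with saline, 8.09, 5.40 and 6.55 with ECM, and 6.07, 7.11 and 5.90 with PE. In MRL mice it was 4.14, 4.78 and 3.60 in uninjured muscle, 5.77, 3.94 and 4.58 with saline, 5.17, 5.23 and 5.53 with ECM, and 5.56, 6.92 and 5.22 with PE. Libraries of ECM- and PE-treated muscle lay above all uninjured libraries of their own strain, in both strains. The log2 fold changes against uninjured muscle were 1.88 (SE 0.58, adjusted p = 0.139) with ECM and 1.56 (SE 0.58, adjusted p = 0.054) with PE in B6 mice. In MRL mice they were 1.14 (SE 0.58, adjusted p = 1) with ECM and 1.73 (SE 0.58, adjusted p = 0.0561) with PE, so none passed the adjustment. Without replicate 1 of ECM-treated B6 mice the change with ECM was 1.17 (adjusted p = 0.398).

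Folr2 (chr7:101489195-101506401, reverse strand) encodes folate receptor beta, found on resident macrophages of many tissues. Its log2 CPM in B6 mice was 3.24, 2.65 and 3.14 in uninjured muscle, 2.50, 3.84 and 2.08 with saline, 4.69, 2.95 and 3.48 with ECM, and 4.24, 5.71 and 3.79 with PE. In MRL mice it was 2.36, 3.16 and 1.93 in uninjured muscle, 3.96, 2.26 and 2.97 with saline, 2.84, 3.50 and 2.13 with ECM, and 3.98, 6.63 and 3.47 with PE. The highest value of all was that of the PE-treated MRL library that stands apart, and in both strains the PE libraries lay above the uninjured ones. The change with PE was 1.57 in B6 mice (SE 0.72, adjusted p = 0.107) and 2.21 in MRL mice (SE 0.72, adjusted p = 0.0532). Without the library that stands apart the second was 1.24 (adjusted p = 0.297).

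Lyve1 (chr7:110448585-110462460, reverse strand), a receptor for the matrix sugar hyaluronan, had no unadjusted p under 0.05 in any comparison. Its group means ran from 2.17 ± 0.68 (SD, n = 3) log2 CPM in ECM-treated B6 mice to 3.28 ± 0.57 in uninjured B6 mice, and single libraries from 1.05 to 3.92. All its comparisons had an adjusted p of 0.319 or more in limma, and the widest difference was -1.10 (SE 0.56) between ECM-treated and uninjured B6 mice. The summed level of 7 lymphatic endothelial markers, which ranged over groups from 53.5 to 129 CPM, had its highest range, 101 to 129 CPM, in PE-treated B6 mice. Their part in the level of Lyve1 was not tested.

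Mgl2, a galactose-binding lectin of alternatively activated macrophages, had the lowest unadjusted p of the 9 genes in any comparison, that of ECM with PE in B6 mice. Its log2 CPM was 2.80, 2.85 and 2.90 in uninjured B6 muscle, 2.90, 3.35 and 2.79 with saline, 6.66, 3.64 and 4.63 with ECM, and 2.43, 2.79 and 2.06 with PE. In MRL mice it was 2.88, 3.39 and 2.21 in uninjured muscle, 4.24, 2.48 and 3.04 with saline, 3.35, 3.83 and 3.16 with ECM, and 4.50, 3.31 and 4.13 with PE. In B6 mice the ECM libraries lay above all others of the strain and the PE libraries below the uninjured ones, while in MRL mice the ECM and PE libraries overlapped.

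The level of Mgl2 was higher with ECM than with PE in B6 mice by 2.55 on the log2 scale (SE 0.55, 95% confidence interval 1.39 to 3.71), with an adjusted p of 0.0601 in limma (0.00019 without adjustment), just outside the threshold. The 2-sided exact permutation test gave p = 0.1, the smallest value that 3 libraries against 3 allow. Replicates decided the call, since the difference was 3.22 (adjusted p = 0.034) without replicate 2 of ECM-treated B6 mice, where 0.0353% of all genes were called, and 1.71 (adjusted p = 0.2) without replicate 1, where 0.0141% were. Against uninjured B6 muscle the change with ECM was 2.13 (SE 0.55, adjusted p = 0.0901), and against saline 1.96 (SE 0.55, adjusted p = 0.766). The first was 2.80 (adjusted p = 0.0487) without replicate 2 of ECM-treated B6 mice and 1.28 (adjusted p = 0.284) without replicate 1, and the second was 1.12 (adjusted p = 1) without replicate 1. In MRL mice ECM and PE differed by -0.53 (SE 0.55, adjusted p = 0.535). The difference between the strains in the ECM to PE contrast was -3.08 (SE 0.78, 95% confidence interval -4.72 to -1.44), with an unadjusted p of 0.000881 and an adjusted p of 0.997 in limma. Without replicate 2 of PE-treated MRL mice it was -3.42 (adjusted p = 0.0374), where 1.9% of all genes were called, and without replicate 1 of ECM-treated B6 mice it was -2.24 (adjusted p = 1, with 0% of all genes called).

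Clec10a (MGL1), the lectin next to Mgl2 on the chromosome, was the only member called in any comparison of 2 groups. In MRL mice its log2 CPM was 2.47, 3.38 and 2.33 in uninjured muscle, 4.43, 1.83 and 2.70 with saline, 3.79, 4.25 and 4.53 with ECM, and 4.66, 5.18 and 4.33 with PE. All 3 PE libraries lay above the 3 uninjured ones, and the level rose by 2.00 on the log2 scale (SE 0.59, 95% confidence interval 0.75 to 3.24, adjusted p = 0.0474 in limma), or 3.99-fold. In this comparison 9.73% of all genes were called, in either direction, and 5.95% of all genes were called higher, beside 1 of 9 members. The call was lost without replicate 1 or 3 of uninjured MRL mice (adjusted p = 0.116 and 0.188) or replicate 2 of PE-treated MRL mice (adjusted p = 0.201), with differences of 1.87, 1.80 and 1.77, in fits that called 0%, 0% and 0.00706% of all genes. In B6 mice Clec10a was at 2.77, 2.79 and 2.71 in uninjured muscle, 2.33, 4.68 and 2.81 with saline, 4.98, 3.67 and 4.34 with ECM, and 3.72, 5.0003 and 3.73 with PE. Both implant groups lay above uninjured B6 muscle, by 1.57 with ECM (SE 0.59, adjusted p = 0.204) and 1.39 with PE (SE 0.59, adjusted p = 0.0879). The mean log2 fold change of the 12 macrophage markers with PE in MRL mice was 2.08, and relative to it Clec10a differed by -0.086 (adjusted p = 0.894), on a scale on which 76.3% of all genes were called. On that scale Clec10a in MRL mice was at 1.52, -0.60 and 1.13 in replicates 1, 2 and 3 with PE, and at 0.42, 1.11 and 0.77 in uninjured muscle. The value of -0.086 thus rested on replicate 2 with PE, which was below all uninjured libraries, while replicates 1 and 3 were above them. Dendritic cell markers also moved with PE. Of 8 such genes 5 were called higher in PE-treated than in uninjured B6 mice, where 24.8% of all genes were called, and 0 in MRL mice (3 at an unadjusted p under 0.05 in limma), and their summed level ranged from 16.1 to 20.3 CPM in uninjured and from 298 to 1010 CPM in PE-treated B6 mice. It ranged from 19.7 to 20.8 and from 22.3 to 1660 CPM in MRL mice, and of the 8 only Ccr7 was at a count of 0, in 1 library of ECM-treated MRL mice. The median of the summed level in PE-treated MRL mice was 33 CPM, so its upper end rested on 1 library. Without replicate 2 of PE-treated MRL mice the median log2 fold change of the 8 genes with PE in MRL mice was 0.85. In that fit 0 of them and 0.00706% of all genes were called. The mean log2 CPM of the 8 genes went from 0.02 to 2.24 in B6 mice and from 0.18 to 1.25 in MRL mice. A sum is weighted to the most abundant genes, and Itgax, 1 of the 8, is also in the list of recruited monocytes described below. The part of dendritic cells in the levels of Clec10a and Mgl2 was not tested.

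F13a1 (chr13:37051152-37234277, reverse strand) encodes the A chain of coagulation factor XIII, a crosslinking enzyme made by resident macrophages. Its mean log2 CPM was highest in PE-treated MRL mice, at 5.74 ± 0.28 (SD, n = 3), and lay between 4.19 ± 0.98 in uninjured MRL mice and 4.96 ± 0.90 in ECM-treated B6 mice in the other groups. The 3 PE-treated MRL libraries, at 5.80, 5.99 and 5.43, were above the uninjured ones, at 4.32, 5.10 and 3.14, by 1.55 on average (SE 0.62, adjusted p = 0.0864). In B6 mice PE and uninjured muscle differed by -0.02 (SE 0.62, 95% confidence interval -1.31 to 1.27). The 3 platelet markers in the matrix had a summed level between 5.24 and 10.2 CPM over all libraries, with Ppbp at a count of 0 in 1 library each of ECM-treated B6 and MRL mice.

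Cbr2 (chr11:120620312-120622940, reverse strand) encodes a carbonyl reductase that is a marker of resident macrophages in mouse muscle. Its log2 CPM in MRL mice was 2.88, 3.99 and 3.11 in uninjured muscle, 4.87, 3.30 and 3.94 with saline, 4.06, 4.74 and 4.05 with ECM, and 4.56, 4.19 and 4.49 with PE. In B6 mice it was 3.34, 3.56 and 3.64 in uninjured muscle, 3.61, 4.02 and 4.10 with saline, 4.54, 3.56 and 3.79 with ECM, and 3.20, 3.95 and 3.17 with PE. With PE every MRL library was above every B6 library, and the strains differed by 0.97 (SE 0.36, adjusted p = 0.139). Within MRL mice the ECM and PE libraries were above the uninjured ones, by 0.96 with ECM (SE 0.36, adjusted p = 1) and 1.09 with PE (SE 0.36, adjusted p = 0.0551).

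Maf (chr8:116409632-116434579, reverse strand), a transcription factor of resident and IL-10-treated macrophages, had its lowest level in the library of PE-treated MRL mice with the most macrophage RNA. Its group means ran from 7.30 ± 0.51 (SD, n = 3) log2 CPM in PE-treated MRL mice to 8.12 ± 0.32 in ECM-treated MRL mice, and that library, the one that stands apart, was at 6.71. Across the 24 libraries the correlation of Maf was -0.504 with the mean of the macrophage markers and 0.678 with that of 7 muscle fibre genes (Ckm, Acta1, Mb, Myh4, Myh1, Tnnt3 and Tnni2). The genes most like it were Tmcc2 (r = 0.960), Ldha (0.942), the lactate dehydrogenase of glycolytic fibres, and Egln2 (0.935). These are descriptions over libraries that share groups and muscle content. The level of Maf in whole muscle is therefore not given as one of macrophages. Against uninjured muscle, Maf in PE-treated MRL mice differed by -0.77 (SE 0.28, adjusted p = 0.0692), and ECM and PE differed by 0.82 in MRL mice (SE 0.28, adjusted p = 0.0863). These values were -0.47 (adjusted p = 0.346) and 0.53 (adjusted p = 0.351) without replicate 2 of PE-treated MRL mice.

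**Figure D2:**
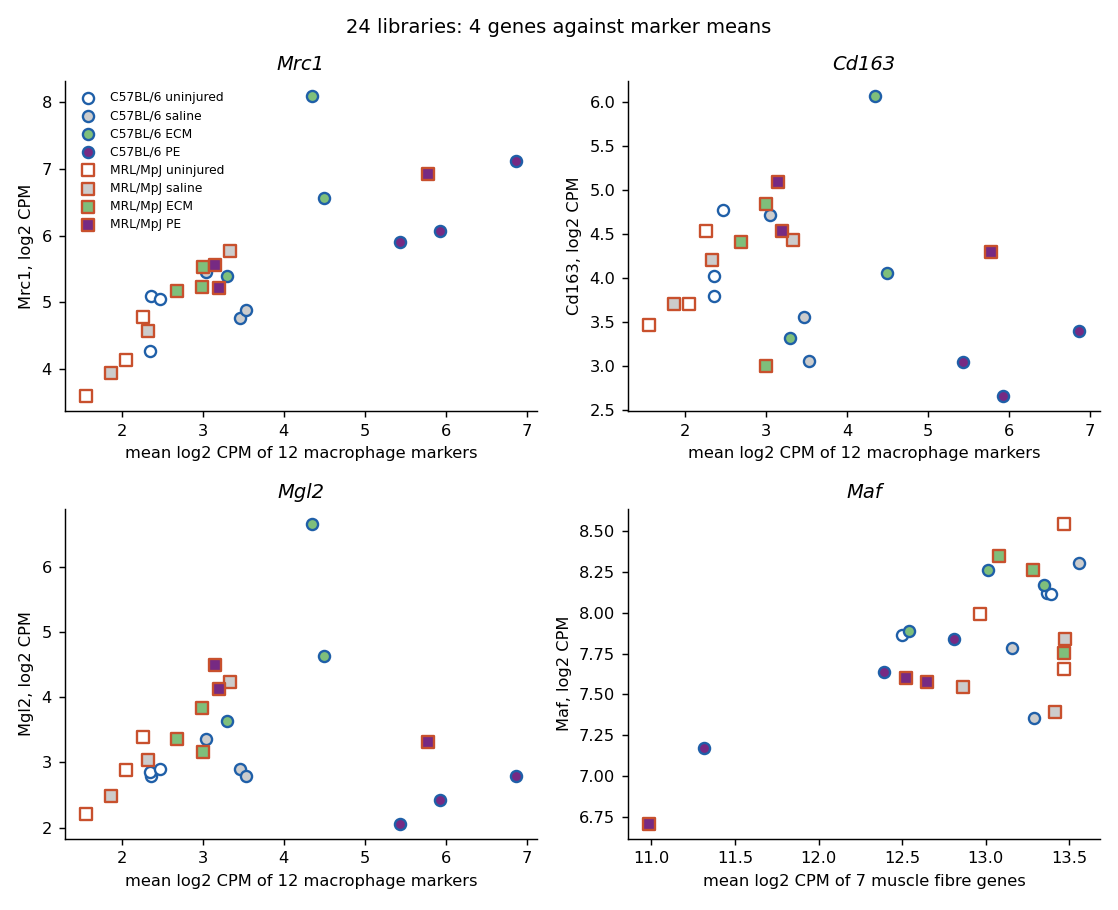
Log2 CPM of Mrc1, Cd163, Mgl2 and Maf (y axes) in the 24 libraries against the mean log2 CPM of 12 macrophage markers, or for Maf of 7 muscle fibre genes (x axes); circles are B6 and squares MRL libraries, filled by treatment. Mrc1 was high where the macrophage mean was high (r = 0.803), Cd163 and Mgl2 were low in the 3 PE-treated B6 libraries whose macrophage means were 5.4 to 6.9, and Maf was lowest in the 2 libraries with the lowest muscle mean.

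The members differed in how closely they went with general macrophage markers over the 24 libraries. The correlation with the marker mean was 0.803 for Mrc1, 0.777 for Folr2 and 0.619 for Clec10a. It was 0.333 for F13a1, 0.119 for Lyve1, 0.116 for Cbr2, 0.0844 for Mgl2 and -0.206 for Cd163. Among themselves, Mrc1 and Clec10a (0.825), Mrc1 and Folr2 (0.806), Folr2 and F13a1 (0.773), and Cd163 and Mgl2 (0.761) were most alike. Among 11608 other genes whose mean log2 CPM was 1 or more, the closest to Mrc1 was Dab2 (0.918), an endocytic adaptor, followed by the inhibitory Fc receptor Fcgr2b (0.916) and the chemokine Ccl6 (0.904). The closest to Folr2 were Snx9 (0.923), Pltp (0.906) and Man1a (0.898), and the closest to Clec10a were Tmem8 (0.853), Cpne8 (0.819) and the chemokine Ccl8 (0.814). For Cd163 they were Adm (0.751), the ficolin Fcna (0.690) and Ap1b1 (0.635), for Mgl2 Fuk (0.738), Azin2 (0.724) and the lectin Cd209a (0.671), and for Cbr2 Fuk (0.723), Fcgrt (0.684) and Cpne8 (0.656). F13a1 was closest to Chp2 (0.784), Pla1a (0.774) and Pdgfc (0.763), and Lyve1 to Gpr133 (0.666), Il17rd (0.648) and Pi16 (0.613). In the order of the 8 group means of each member, the libraries of all 63 pairs of neighbouring groups overlapped. Such neighbours lie close because the groups were ordered by their means, so this overlap is not a result about the members.

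In the control injury none of the 9 genes was called. With saline 0 of 9 passed the limma test in either strain, in comparisons in which 0% of all genes did, and 0 had an unadjusted p under 0.05, beside 12.4% of all genes in B6 and 3.1% in MRL mice. The median log2 fold change of the members was -0.20 in B6 and 0.43 in MRL mice, beside -0.013 and -0.0099 over all genes. The 12 macrophage markers had medians of 1.09 and 0.72, also with 0 called in either strain (4 in B6 and 0 in MRL mice at an unadjusted p under 0.05).

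With ECM, 0 of 9 members were called against uninjured muscle in B6 mice, where 0.424% of all genes were called, and 3 had an unadjusted p under 0.05 (Mrc1, Mgl2 and Clec10a, all with higher means), beside 16.8% of all genes. The libraries of these 3 genes did not overlap between the groups, which held for 32.3% of all genes. The median of the members was 0.45, or 0.16 without replicate 1 of ECM-treated B6 mice, where 0 were called (0.0777% of all genes). Without replicate 2 of that group Mgl2 was called (0.106% of all genes). In MRL mice 0 of 9 were called (0.0141% of all genes), and 2 (Clec10a and Cbr2) had an unadjusted p under 0.05, beside 3.8% of all genes. Libraries of 3 members (these 2 and Mrc1) did not overlap, beside 13.1% of all genes. ECM against saline gave 0 of 9 in both strains, with 0.0283% of all genes called in B6 and 0.00706% in MRL mice. At an unadjusted p under 0.05 there were 2 members in B6 mice (Mrc1 and Mgl2), beside 3.99% of all genes, and 0 in MRL mice, beside 3.55%. Mgl2 was the 1 member whose libraries did not overlap in B6 mice, beside 8.28% of all genes. Without replicate 1 of ECM-treated B6 mice the difference of Mrc1 from saline was 0.94 instead of 1.65.

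With PE in B6 mice general macrophage markers were called and the 9 genes were not. Here 11 of the 12 macrophage markers rose against uninjured muscle, with a median log2 fold change of 3.50. Ctss, a lysosomal protease, rose by 6.82 (SE 1.11, adjusted p = 0.0018), Cd68 by 5.76 (SE 0.95, adjusted p = 0.0018) and Cd14 by 3.96 (SE 0.71, adjusted p = 0.00259). Of the 9 members 0 were called, in a comparison in which 24.8% of all genes were, and their median change was -0.08, beside 0.02 over all genes. Without adjustment 3 members (Mrc1, Clec10a and Folr2) had a p under 0.05, beside 40.9% of all genes, with log2 fold changes of 1.39 to 1.57. Libraries of 6 members did not overlap between the groups (these 3 higher with PE, and Cd163, Mgl2 and Maf lower), beside 51.1% of all genes. With each library expressed relative to the mean of the macrophage markers, all 9 members were called lower, on a scale on which 95% of all genes were called, and the median was -3.76 for the members and -3.67 for all genes. In the same mice 5 of 16 other genes of resident macrophages were called. Timd4, a receptor for dead cells on long-lived macrophages, fell by 2.97 (SE 0.86, adjusted p = 0.0206), from 0.71 to -2.26 log2 CPM, the second close to the level of 3 counts. Cd5l, a secreted scavenger receptor protein, rose by 3.12 (SE 0.96, adjusted p = 0.0275) from -2.16 log2 CPM, and Siglec1, the sialic acid receptor CD169, rose by 2.90 (SE 0.70, adjusted p = 0.00959).

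In MRL mice PE gave 8 of 12 macrophage markers called higher, with a median of 2.00, led by Adgre1 (2.49, SE 0.74, adjusted p = 0.0473), Fcgr1 (2.31, SE 0.61, adjusted p = 0.0448) and Cd14 (2.30, SE 0.71, adjusted p = 0.0489). In this comparison 9.73% of all genes were called, and 5.95% were called higher. Besides Clec10a, the members Cbr2, F13a1, Folr2, Mrc1 and Maf had an unadjusted p under 0.05, beside 36.1% of all genes, and all but Maf had higher means. The libraries of these 6 genes did not overlap between the groups, as for 38.8% of all genes. The median of the 9 was 1.16, beside 0.07 over all genes. Of 16 other resident genes 6 were called higher, among them Siglec1 (2.74, SE 0.70, adjusted p = 0.0448), the growth factor Igf1 (2.13, SE 0.53, adjusted p = 0.0448) and the chemokine Pf4 (1.88, SE 0.55, adjusted p = 0.0466). Without replicate 2 of PE-treated MRL mice 0.00706% of all genes were called, and 0 of the members, of the macrophage markers and of the other resident genes, with medians of 1.22, 1.25 and 1.25. Without replicate 1 or 3 of that group 4 members (Mrc1, Clec10a, Folr2 and, lower, Maf) were called, beside 20.3% and 24.2% of all genes, and without replicate 2 of uninjured MRL mice Clec10a and Cbr2 were (7.69% of all genes).

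Against saline, PE gave 0 of 9 members called in B6 mice (5.97% of all genes) and in MRL mice (0% of all genes). At an unadjusted p under 0.05 there were 2 in B6 mice (Mrc1 at 1.33 and Folr2 at 1.78, beside 25.2% of all genes) and 2 in MRL mice (Clec10a at 1.74 and Folr2 at 1.63, beside 23.3%). Mrc1 in B6 mice was the 1 member whose libraries did not overlap there, beside 29.7% of all genes. The difference of Folr2 from saline in MRL mice was 0.66 without replicate 2 of PE-treated MRL mice. Without replicate 1 of saline-treated MRL mice, Clec10a was called at 2.46 (adjusted p = 0.0352 in limma, with 5.47% of all genes called). Between ECM and PE, 0 of 9 were called in B6 mice (0.226% of all genes) and in MRL mice (0% of all genes). At an unadjusted p under 0.05 there were Cd163 and Mgl2 in B6 mice, beside 20.6% of all genes, and Folr2 and Maf in MRL mice, beside 28.4%. Libraries did not overlap for 2 members in B6 mice (Mgl2 and Maf, beside 34.1% of all genes) and for 1 in MRL mice (Maf, beside 29.8%). Without replicate 3 of PE-treated MRL mice Folr2 (-2.48, adjusted p = 0.0424) and Maf (0.98, adjusted p = 0.0485) were called between ECM and PE in MRL mice, beside 12.3% of all genes. Without replicate 2, 0 members were called there (0.00706% of all genes), with Folr2 at -0.90 and Maf at 0.53 instead of -1.87 and 0.82. In B6 mice Cd163 differed between ECM and PE by 1.45, and by 0.66 without replicate 1 of ECM-treated mice.

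**Figure D3:**
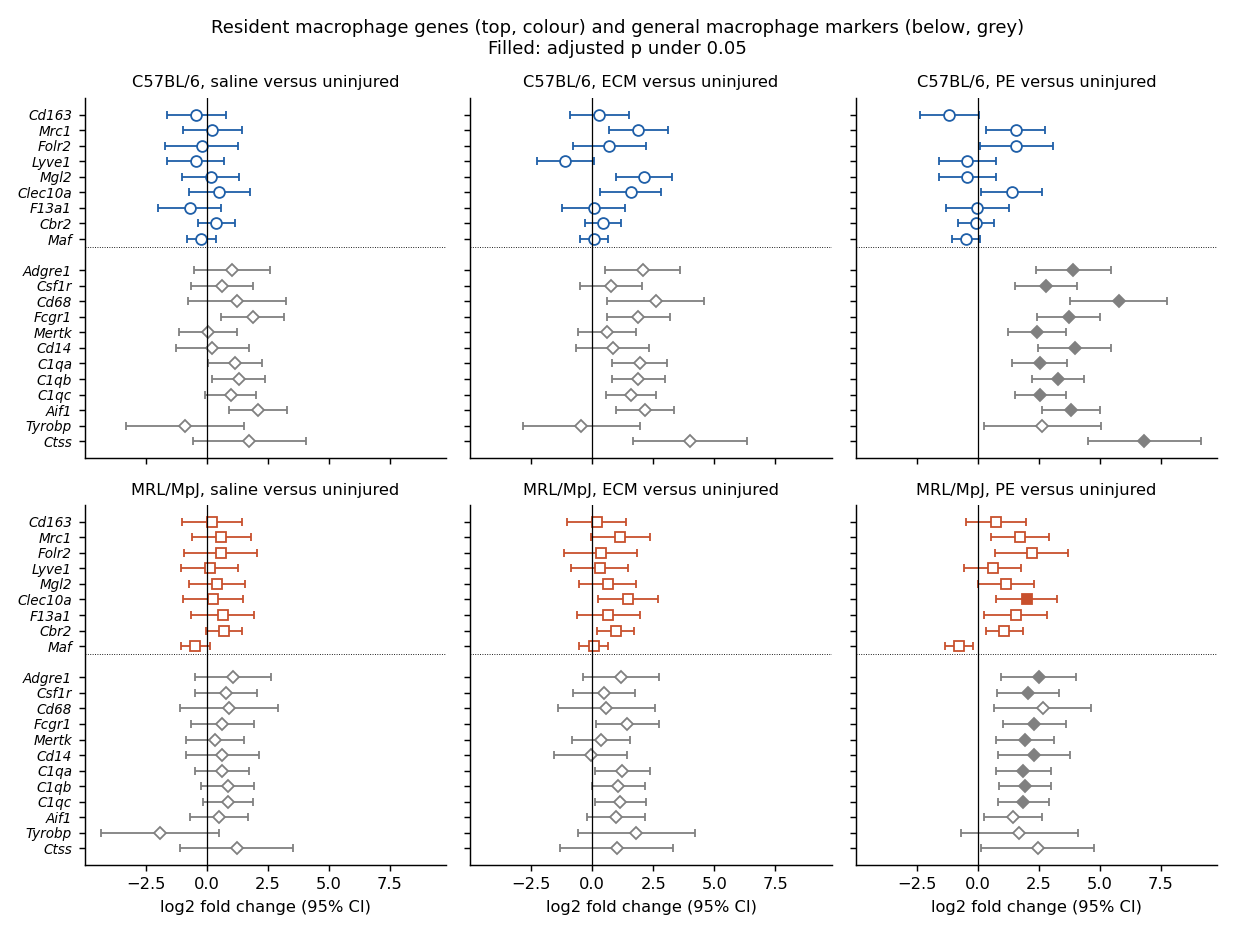
Log2 fold changes from uninjured muscle (x axis, with 95% confidence intervals from limma) of the 9 genes (colour) and of 12 general macrophage markers (grey), for saline, ECM and PE in B6 (top row) and MRL mice (bottom row); filled symbols are called. With PE in B6 mice 11 of 12 macrophage markers were called and 0 of the 9 genes, and in MRL mice 8 of 12 markers and Clec10a were called.

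Between the strains, no member was called in any treatment by limma, in comparisons in which 2.60% (uninjured), 2.51% (saline), 2.66% (ECM) and 3.35% (PE) of all genes were called. The study, in its own analysis, reported Cd163 and Mgl2 as significantly higher in MRL than in B6 mice with PE. It also reported both as significantly higher with ECM than with PE in B6 mice. Here these differences had the same direction but were not called. By flow cytometry the study found less CD206 (Mrc1) on macrophages of MRL mice, and less CD301b (Mgl2) on those of ECM-treated MRL mice. CD206 was also lower by staining, and the study described the same patterns of both in RNA. At an unadjusted p under 0.05 there were 0 members in uninjured and 0 in saline-treated mice, 2 with ECM and 3 with PE, beside 10.9%, 13.3%, 13.4% and 19.1% of all genes. With ECM these were Mgl2, at -1.53 (SE 0.55, adjusted p = 0.206), and Mrc1, at -1.37 (SE 0.58, adjusted p = 0.301), both lower in MRL mice. Leaving out replicate 2 of ECM-treated B6 mice gave a called difference of -2.20 for Mgl2 (adjusted p = 0.0341, with 2.1% of all genes called), and leaving out replicate 1 gave -0.68 (adjusted p = 0.633, with 1.94%). That of Mrc1 was -0.67 (adjusted p = 0.705) without replicate 1. With PE they were Cd163, Mgl2 (1.56, SE 0.55, adjusted p = 0.128) and Cbr2, all higher in MRL mice, and their libraries did not overlap between the strains, as for 17.5% of all genes. Without replicate 2 of PE-treated MRL mice Mgl2 was called, at 1.89 (adjusted p = 0.0287), in a fit that called 24.6% of all genes. The median difference of the members with PE was 0.58, that of the 12 macrophage markers was -2.02, with C1qb called lower (-2.10, SE 0.52, adjusted p = 0.0278), and that of all genes was -0.017. Without the same library 11 of the 12 markers were called lower in MRL mice, with a median of -2.50, and the median of the members was 0.35. Genes of other cells also differed between the strains with PE. All 5 adipocyte genes had higher means in MRL mice, with a median of 3.59 and Lep called (4.82, SE 1.27, adjusted p = 0.0405), and their summed level ranged from 60.9 to 156 CPM in B6 and from 171 to 2530 CPM in MRL mice. All 4 neutrophil genes had lower means in MRL mice, with a median of -2.93 and S100a9 (-4.77, SE 1.03, adjusted p = 0.0114) and S100a8 (-3.30, SE 0.88, adjusted p = 0.0439) called, and summed levels of 16.3 to 127 CPM in B6 and 2.64 to 23.7 CPM in MRL mice. The study, counting cells by flow cytometry, found slightly more neutrophils in MRL than in B6 mice, and its Mpo RNA tended to be higher in MRL mice. These RNA levels of whole muscle are therefore not given as numbers of neutrophils. All 5 and all 4 were called without replicate 2 of PE-treated MRL mice. Their part in the differences of the members was not tested.

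Other genes of resident macrophages were called between the strains. With PE 3 of 16 other resident genes were called, all higher in MRL mice, beside 3.35% of all genes. They were Timd4 (3.57, SE 0.86, adjusted p = 0.024), Cd209b (3.49, SE 0.81, adjusted p = 0.0197) and Cd209d (2.82, SE 0.67, adjusted p = 0.022), the last 2 being lectins from a cluster of related genes, whose reads may be divided between copies. Timd4 lay between 0.49 and 2.06 log2 CPM in PE-treated MRL mice and between -3.13 and -1.77 in PE-treated B6 mice, where it was near the level of 3 counts, at -2.33. Without replicate 2 of PE-treated MRL mice 6 of the 16 were called higher, in a fit that called 24.6% of all genes. Timd4 was then higher by 3.98, Cd209b by 4.06 and Cd209d by 3.38. With ECM, where 2.66% of all genes were called, Cd209b was called, at 3.35 higher in MRL mice (SE 0.81, adjusted p = 0.0267), with a count of 0 in 1 library of ECM-treated B6 mice. Tests of whether a change differed between strains called 0 of the 9 members and 0% of all genes in each of 4 contrasts. At an unadjusted p under 0.05 there were 0 members for saline to uninjured and 0 for PE to saline, beside 4.03% and 4.34% of all genes, 1 for ECM to saline, beside 2.26%, and 2 for ECM to PE, beside 3.69%. Mgl2 differed in the ECM to saline contrast (-1.77, SE 0.78), and Mgl2 and Cd163 in that of ECM to PE (Cd163 -2.01, SE 0.82, unadjusted p = 0.0244). Without replicate 1 of ECM-treated B6 mice that of Mgl2 in ECM to saline was -0.92 and that of Cd163 in ECM to PE was -1.21.

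**Figure D4:**
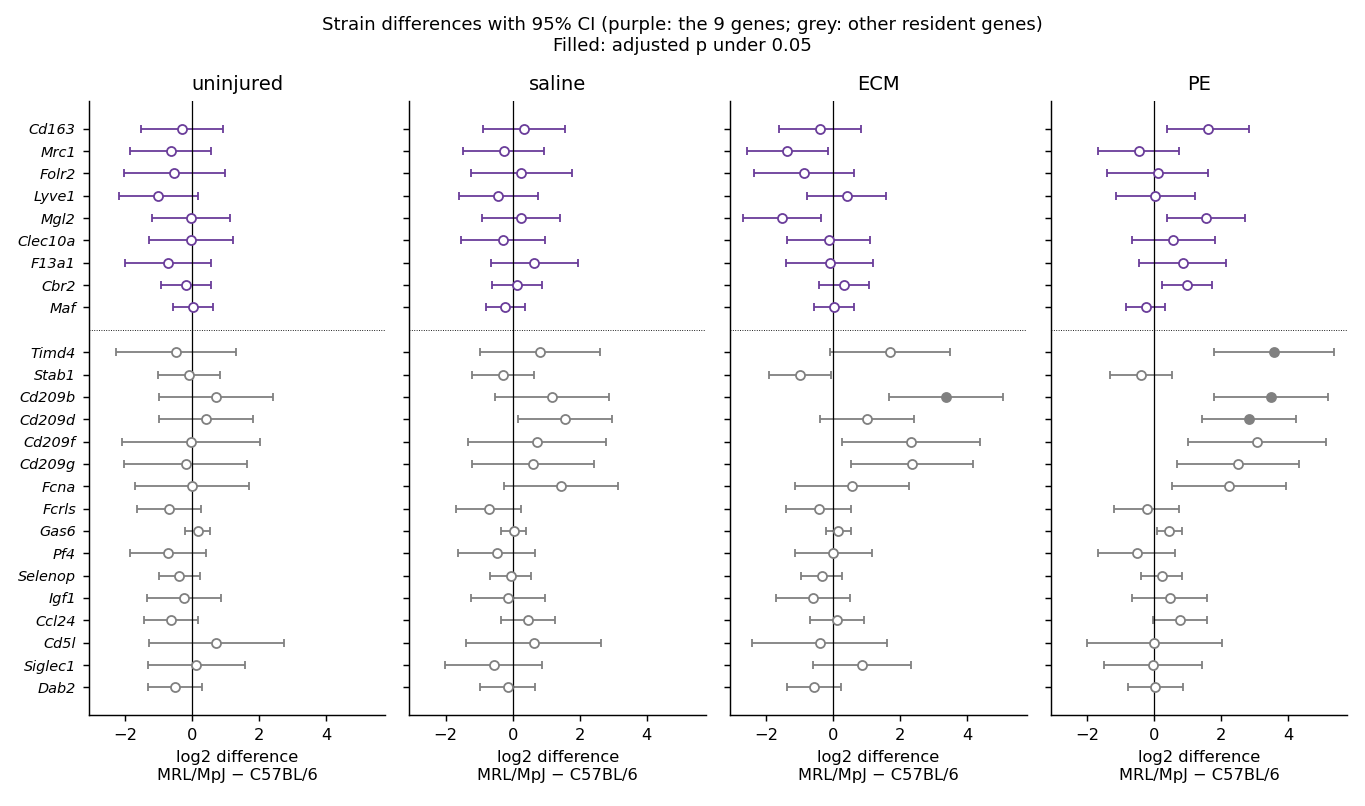
Log2 difference between MRL and B6 mice (x axis, MRL minus B6, with 95% confidence intervals from limma) of the 9 genes (purple) and 16 other genes of resident macrophages (grey) in uninjured, saline-, ECM- and PE-treated muscle; filled symbols are called. None of the 9 was called, Timd4, Cd209b and Cd209d were called with PE, and Cd209b with ECM.

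The signals that support resident macrophages were measured alongside. Of 5 ligands in the matrix (Csf1, Il34, Il4, Il33 and Tgfb1), Csf1 rose by 1.11 (SE 0.37, adjusted p = 0.0363) and Tgfb1 by 3.06 (SE 0.60, adjusted p = 0.00344) with PE in B6 mice, and 0 of 5 were called with PE in MRL mice, where 2 had an unadjusted p under 0.05. Of all genes, 24.8% were called in B6 and 9.73% in MRL mice in these comparisons, and a share of a list near these is not a result about the list. Of 8 receptors, 5 were called higher in PE-treated B6 and 4 in PE-treated MRL mice. Il10ra, the IL-10 receptor chain, rose by 3.93 in B6 mice (SE 0.95, adjusted p = 0.00986), and Csf1r, which is also 1 of the 12 macrophage markers, rose by 2.81 in B6 mice (SE 0.61, adjusted p = 0.00586) and 2.07 in MRL mice (SE 0.61, adjusted p = 0.0468). Of 10 transcription factors, 2 rose with PE in B6 mice, Spi1 by 4.53 (SE 0.84, adjusted p = 0.00292) and Stat6 by 0.78 (SE 0.26, adjusted p = 0.0387). In MRL mice Spi1 rose by 2.98 (SE 0.84, adjusted p = 0.0463) and Nr4a1 fell by 1.77 (SE 0.50, adjusted p = 0.0463). Without replicate 2 of PE-treated MRL mice 0 of these genes were called with PE in MRL mice. Between the strains 0 of these 23 ligands, receptors and factors were called with PE, and 8 had an unadjusted p under 0.05, beside 19.1% of all genes. Leaving out replicate 2 of PE-treated MRL mice, 1 ligand, 5 receptors and 1 factor were called lower in MRL mice and 1 factor higher, beside 24.6% of all genes.

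Genes that handle haem and iron, which follow the uptake of haemoglobin by CD163, were measured with PE too. Of 8 such genes, 6 rose against uninjured B6 muscle, where 24.8% of all genes were called, with a median of 1.24. Ftl1, the light chain of ferritin, rose by 3.29 (SE 0.63, adjusted p = 0.00319), Hmox1, the haem oxygenase, by 3.27 (SE 0.59, adjusted p = 0.00264) and Blvrb, a biliverdin reductase, by 2.19 (SE 0.53, adjusted p = 0.00999). In MRL mice, where 9.73% of all genes were called, 3 of the 8 rose with PE, Ftl1 by 2.12 (SE 0.63, adjusted p = 0.0474), Blvrb by 1.85 (SE 0.53, adjusted p = 0.0463) and Slc48a1, a haem transporter, by 0.97 (SE 0.30, adjusted p = 0.0491), and 0 of 8 were called without replicate 2 of PE-treated MRL mice. Genes of recruited monocytes and their progeny (Ccr2, Ly6c2, Trem2, Gpnmb and others) were called higher for 10 of 10 with PE in B6 mice, with a median of 3.31, and for 1 of 10 in MRL mice, with a median of 1.72. The count of 1 of 10 is near the 9.73% of all genes and is not a result about the list. In MRL mice it was 0 of 10, with a median of 0.30, without replicate 2 of PE-treated MRL mice. All these genes share their libraries with the 9 members, and their part in the members' levels was not tested.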

How the data were processed

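Poly(A)-selected quadriceps RNA was sequenced in 24 samples, which the study treats as independent. The authors pseudoaligned paired-end reads to GRCm39 transcripts with kallisto, which gives estimated counts, summed them to genes, filtered out genes that did not exceed 1 CPM in 3 or more libraries, and normalized by TMM in edgeR. They deposited the result as log2 CPM values, with a prior count of 2. The lowest value, -3.65, is a count of 0. Linear CPM was recovered by subtracting the prior, 0.0795 CPM. Of 14160 rows, 1 without a symbol was left out.

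The study's own model needs counts, so limma 3.58.1 with a variance trend (R 4.3.3) was fitted to the log2 values, with 1 coefficient per group over 24 libraries and Benjamini-Hochberg adjustment over 14159 genes in each of 16 comparisons of 2 groups and 4 of strain differences. The procedure was tested on simulated data. The members and gene lists were chosen with earlier results of these data known. From lists other than the members, at most 3 called genes with the largest changes were named per list and comparison. For likeness, the 3 genes with the highest Pearson correlation were named. Symbols were matched to RefSeq, through older symbols for Adgre1 and Selenop. Vsig4, Il13, Il10, Spic, Retnlg, Ly6g, Gp9 and Gp6 of the lists were not analysed. Another gene of the transcription factor list is not reported here. Transcripts were compared with BLAST 2.17.0 and coding sequences aligned with Biopython 1.88 on GENCODE models of GRCm39. Deviations of same-numbered replicates had correlations above 0.1 in all 3 pairs only between PE-treated strains (0.105, 0.532 and 0.439). All 3 were also positive between uninjured strains (0.202, 0.376 and 0.0468) and for PE against uninjured muscle in B6 mice (0.0869, 0.247 and 0.118). Depth limits the precision of low levels, and the intervals given come from the spread between libraries in the limma fit. The alternatives were other scales, filters, normalizations, library weights, fits of the compared groups, a replicate block, levels relative to macrophage markers, and each library left out.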

Additional observations from a re-analysis of the deposited data

How the results depend on the processing

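Shares in brackets are those of all genes called in the same fit. For PE against uninjured MRL mice the count of members called was 1. It was 0 with quantile normalization (0%), with only the compared groups in the fit (0%) and with the replicate block (0.0636%), 3 with a filter of a mean log2 CPM of 1 or more (14.2%), 5 with libraries scaled to equal totals (14.7%), 2 with library weights (17.8%), and between 0 and 4 with 1 library left out. Relative to macrophage markers it was also 1 (76.3%), but another member, since Clec10a differed by -0.086 on that scale and was not called. For PE against uninjured B6 mice, where the count was 0, it was 2 with equal totals (30.4%), 1 with quantile normalization (27%), 4 with only the compared groups (29.9%) and 9 relative to macrophage markers (95%). For ECM against PE in B6 mice it moved from 0 to 1 on the log2(CPM + 1) scale (0.855%), 1 with quantile normalization (0.212%) and 8 relative to macrophage markers (83.7%). For ECM against uninjured B6 mice it became 1 with only the compared groups (6.31%) and 2 relative to macrophage markers (69.3%), which also gave 8 for PE against saline in B6 mice (92.3%) and 9 for PE between strains (84.1%).

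Library weights, whose estimation stopped before convergence and gave 56.3 to replicate 1 of PE-treated B6 mice and 0.057 to replicate 2 of PE-treated MRL mice, moved counts of 0 in many comparisons. In B6 mice they became 2 for saline (33.8%), 3 for ECM (19%) and 6 for PE (63.6%) against uninjured muscle, 4 for ECM (15.7%) and 6 for PE (68.1%) against saline, and 4 for ECM against PE (39.4%). They became 1 for PE against saline in MRL mice (23.3%), 2 for ECM (17%) and 4 for PE (56.5%) between strains, and 3 and 2 for the strain difference of PE against saline (30.5%) and of ECM against PE (13.3%).

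With 1 library left out, counts ran from 0 to 1 for ECM against uninjured and ECM against PE in B6 mice, for PE against saline in MRL mice, for ECM and PE between strains and for the strain difference of ECM against PE, and from 0 to 2 for ECM against PE in MRL mice. The replicate block, fitted with same-numbered libraries as pairs, changed no call of a member but that of Clec10a (adjusted p = 0.0538 in limma). With 3 libraries per group the 95% intervals are wide, and a difference whose interval includes 0 cannot be told from 0.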
